A study of Homo sapiens with 6 samples.

Results

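The YAP/TAZ-TEAD pathway was examined through 10 genes in A549-GFP cells and A549-TIPARP cells. They were taken by gene symbol from the 53826 entries of the deposited tables, in which CTGF and CYR61 stand under their older symbols (CCN2 and CCN1 in current annotation). All 10 were among the 13181 analysed genes, those above 2 TPM (the TPM unit is a share of the library corrected for transcript length) in at least 1 of the 6 libraries. The genes were chosen by their known role in the pathway with the log2 TPM differences of A549-TIPARP against A549-GFP cells in view, so these values are a description and no test was made of them.

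Both lines derive from A549, which was established from a human lung adenocarcinoma. A549-TIPARP cells stably carry a pMXs retroviral vector with the TIPARP coding region, which had been cloned from A549 cells transduced with OCT3/4, KLF4 and SOX2. TIPARP is a mono-ADP-ribosyltransferase induced through the dioxin receptor. A549-GFP cells carry GFP in the same vector, so both lines went through viral transduction, and whether either is a clone or a pool of cells is not given in the sources used here. Each line had 3 RNA-seq libraries, numbered as experiments 1 to 3. Nothing states that they came from separate cultures, so their spread may be technical.

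In the Hippo pathway the kinases MST1 and MST2 (genes STK4 and STK3) activate LATS1 and LATS2, which phosphorylate the coactivators YAP and TAZ (genes YAP1 and WWTR1) and keep them out of the nucleus. When the kinases are off, as in spread cells on a stiff substrate, YAP and TAZ enter the nucleus and bind TEAD factors, which drive CTGF, CYR61, ANKRD1, AMOTL2, AJUBA, AXL and LATS2. Several of these targets act back on the pathway: LATS2 and AMOTL2 restrain YAP, and AJUBA restrains LATS. Much of the control lies in phosphorylation and location, which RNA levels do not show. In lung cancer the pathway is known for its part in growth, invasion and drug resistance.

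The promoters of the members are shown here because TEAD factors bind a short motif, GGAATG, whose reverse complement is CATTCC. RefSeq promoter windows of GRCh38.p14, each with 250 bases before and 50 bases from the start site, were matched by gene ID for 8 of the 10 genes, in 12 windows, and not for CYR61 and TEAD1. The motif was searched on both strands, and the spellings cannot overlap each other. It stood in 7 of the 12 windows (58.3%), against 14.0% of all 35116 windows in the table. Many members were chosen as known targets of TEAD factors, so this share is not independent of the choice and was not tested. CTGF had 3 copies, which begin 169, 104 and 95 bases before the start site, and ANKRD1 had 2, at 220 and 128 bases before it. Of all windows 1.37% held at least 2 copies and 0.128% held at least 3. YAP1 and LATS2 had 1 copy each, AMOTL2, AJUBA and AXL had 1 copy in 1 of their windows, and WWTR1 had none in either window. The windows below are CTGF (chr6:131951323-131951622, minus strand) and ANKRD1 (chr10:90921038-90921337, minus strand), the members with most copies. WTIP (chr19:34481508-34481807, plus strand), a relative of AJUBA, was added after its values were seen and had 3 copies, at 117 and 83 bases before the start site and at base 1. Of the windows of the further pathway genes read below 11 of 69 (15.9%) held the motif, and the window of CCDC80, which like WTIP was past 2-fold, held 0 copies. The other further genes with 2 copies were NUAK2 and WWC2, whose log2 differences were -0.05 and -0.23, and WISP3, which was at the floor in all libraries. All are written 5′ to 3′ with the motif copies in capitals.
CTGF: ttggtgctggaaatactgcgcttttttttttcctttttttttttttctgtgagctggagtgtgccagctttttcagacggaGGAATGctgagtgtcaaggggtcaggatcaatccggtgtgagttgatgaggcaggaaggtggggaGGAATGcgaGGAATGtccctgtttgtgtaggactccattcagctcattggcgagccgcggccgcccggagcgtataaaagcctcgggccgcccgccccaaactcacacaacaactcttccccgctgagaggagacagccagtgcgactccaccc
ANKRD1: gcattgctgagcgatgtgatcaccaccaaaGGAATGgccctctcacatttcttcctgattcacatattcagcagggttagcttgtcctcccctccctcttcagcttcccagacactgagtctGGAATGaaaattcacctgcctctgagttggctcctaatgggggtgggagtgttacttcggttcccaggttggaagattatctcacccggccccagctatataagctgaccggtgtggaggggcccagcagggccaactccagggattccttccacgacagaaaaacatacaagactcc
WTIP: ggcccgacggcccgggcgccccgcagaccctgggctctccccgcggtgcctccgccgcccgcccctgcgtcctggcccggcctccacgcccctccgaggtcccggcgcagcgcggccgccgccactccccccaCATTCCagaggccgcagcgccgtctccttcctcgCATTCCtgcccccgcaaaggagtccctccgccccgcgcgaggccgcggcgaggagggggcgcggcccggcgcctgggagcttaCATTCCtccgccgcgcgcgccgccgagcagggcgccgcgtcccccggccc

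The libraries were checked before the comparison. TIPARP stood between 3.68 and 11.4 TPM in A549-GFP cells and between 90.5 and 131 TPM in A549-TIPARP cells, as the labels have it. The epithelial genes KRT8, KRT18, EPCAM and CDH1 were all well above the floor of 1 TPM, with 61.0 TPM or more in every library. Of the 5 fibroblast genes COL1A2, DCN and PDGFRB were at the floor in all libraries, and so were the 3 endothelial genes PECAM1, VWF and CDH5 and the leukocyte genes PTPRC and CD3E. COL1A1 did not exceed 2.56 TPM, although its A549-TIPARP libraries (from 1.64 TPM) stood above its A549-GFP libraries (up to 1.44 TPM). CD68 ranged from 25.0 to 68.1 TPM. The summed TPM of the fibroblast list was 5.09 to 5.44 in A549-GFP cells and 5.64 to 6.56 in A549-TIPARP cells, most of it the floor itself. The part of COL1A1-expressing cells in the results was not tested. A549-GFP replicate 2 stood apart from the other libraries. Its log2 median ratio to the mean of the libraries was 0.27, and its KRT8 level was 3855 TPM against 6959 to 9287 TPM elsewhere. The same ratio was -0.19 for A549-GFP replicate 3, the lowest of all. Among the members 6 of 10 had their highest A549-GFP value in replicate 2 and 7 of 10 their lowest in replicate 3, while over all analysed genes the shares were 62.5% and 54.6%. The part of these libraries in each result was not tested, and values with single libraries left out are given for the members and for several of the further genes.

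The 10 genes did not move together. ANKRD1, CTGF and WWTR1 had mean levels more than 1.5-fold higher in A549-TIPARP cells, and the other 7 genes, among them YAP1 and TEAD1, differed less, at most 1.23-fold (CYR61). No member was more than 1.5-fold lower. For ANKRD1 and WWTR1 the lines did not overlap, with the lowest A549-TIPARP library above the highest A549-GFP library. Over all 13181 genes 5.36% were higher without overlap, 3.54% were lower without overlap, 5.70% were more than 1.5-fold higher and 3.02% were more than 1.5-fold lower. The median log2 difference of the members was 0.06, and that of all analysed genes was -0.07. Without A549-GFP replicate 2 these medians were 0.35 and 0.05, and without A549-GFP replicate 3 they were -0.27 and -0.17. In bulk RNA a change in the number of cells that use a gene cannot be told apart from a change in RNA per cell.

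**Figure D1:**
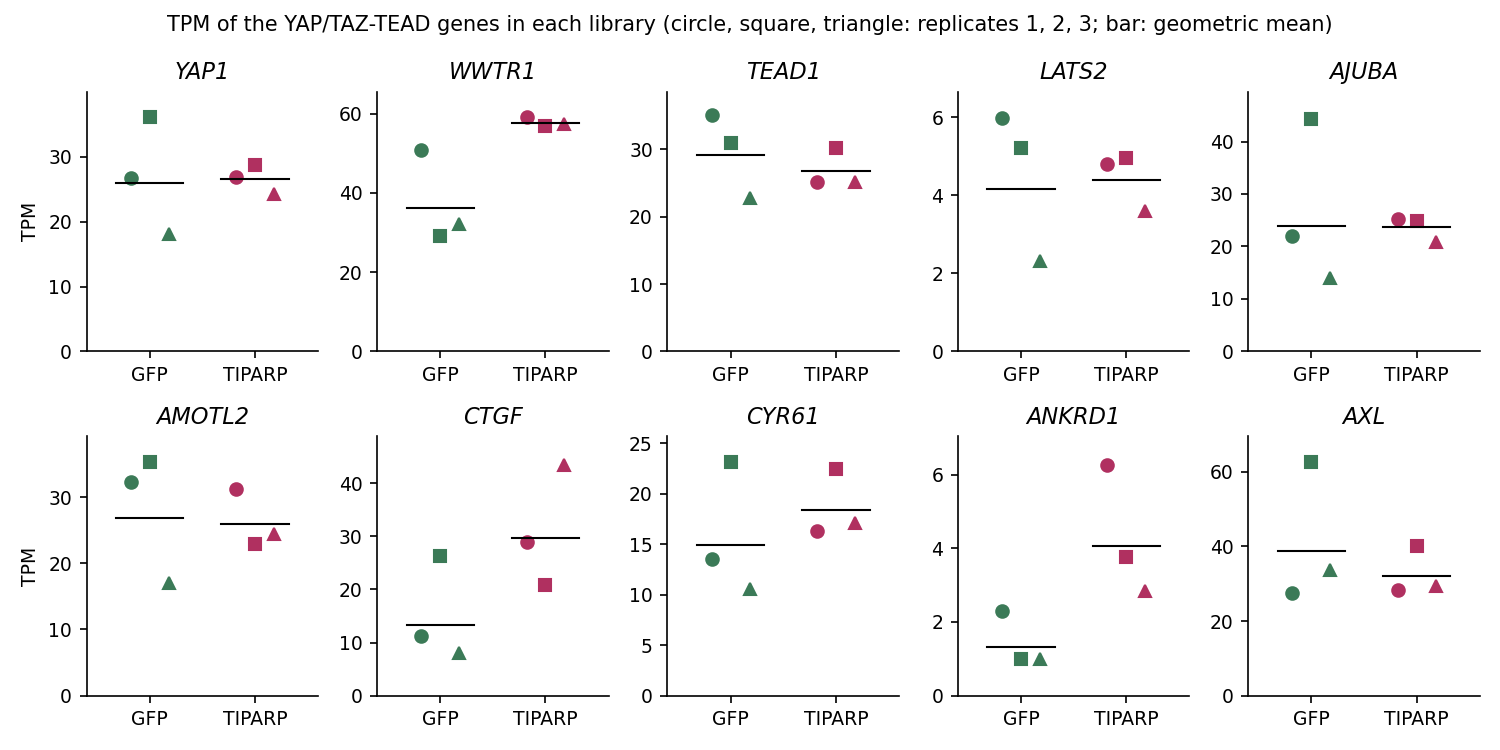
TPM (y axis, linear, from 0, with its own scale for each gene) of the 10 YAP/TAZ-TEAD genes in the 3 A549-GFP libraries (green) and the 3 A549-TIPARP libraries (red). Circles, squares and triangles are replicates 1, 2 and 3 and bars are geometric means. The 3 A549-TIPARP points lie above all A549-GFP points for WWTR1 and ANKRD1, while the squares of A549-GFP replicate 2 are high for CTGF, CYR61, AJUBA and AXL.

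YAP1, the first of the coactivators (Entrez Gene ID 10413, chromosome 11 of hg38 from 102110447 to 102233424, plus strand, 9 exons in the canonical GENCODE 44 transcript) had 26.8, 36.1 and 18.1 TPM for A549-GFP replicates 1, 2 and 3. For A549-TIPARP replicates 1, 2 and 3 the values were 26.9, 28.8 and 24.2 TPM, all within the A549-GFP range. The mean log2 TPM was 4.70 ± 0.50 (SD, n = 3) against 4.73 ± 0.12 (SD, n = 3), a log2 difference of 0.03. It became 0.27 without A549-GFP replicate 2 and -0.23 with replicate 3 left out instead.

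WWTR1, which encodes TAZ (Entrez Gene ID 25937, chromosome 3 from 149517235 to 149736714, minus strand, 7 exons), had 50.9, 29.2 and 32.1 TPM in the A549-GFP libraries and 59.1, 56.8 and 57.4 TPM in the A549-TIPARP libraries. The A549-TIPARP libraries were close to each other and all above the highest A549-GFP library, replicate 1. Its mean log2 TPM was 5.18 ± 0.43 (SD, n = 3) and 5.85 ± 0.03 (SD, n = 3), a 1.59-fold higher level. Leaving out each library in turn gave a log2 difference between 0.51 and 0.92, and rescaling the libraries by their median ratios gave 0.74. WWTR1-AS1, an antisense gene inside the WWTR1 locus, stood between 1.16 and 2.32 TPM and overlapped between the lines. Whether the counting used strand is not given, so reads of the pair cannot be told apart.

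As a ratio within each library, which does not depend on the scaling of libraries, WWTR1 over YAP1 was 1.90, 0.807 and 1.78 in A549-GFP replicates 1, 2 and 3 and 2.20, 1.97 and 2.37 in A549-TIPARP. TAZ transcripts thus outnumbered YAP transcripts in 5 of the 6 libraries, and the exception was A549-GFP replicate 2. The summed TPM of both genes was 50.2 to 77.7 in A549-GFP cells and 81.6 to 86.0 in A549-TIPARP cells, without overlap and 1.33-fold higher in the geometric mean.

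TEAD1, the DNA-binding partner of YAP and TAZ (Entrez Gene ID 7003, chromosome 11 from 12674421 to 12944737, plus strand, 13 exons), had 35.0, 31.0 and 22.8 TPM across the A549-GFP libraries against 25.2, 30.2 and 25.1 TPM across the A549-TIPARP libraries. The lines overlapped, with mean log2 TPM of 4.86 ± 0.32 and 4.74 ± 0.15 (SD, n = 3 each) and a log2 difference of -0.13, which became 0.01 without A549-GFP replicate 1 and -0.30 with replicate 3 left out instead. TEAD1 made up 26.6% to 36.4% of the summed TPM of TEAD1 to TEAD4 over the 6 libraries. That sum was 85.6 to 96.3 TPM across the A549-GFP libraries against 79.5 to 97.1 TPM across the A549-TIPARP libraries, so the lines overlapped for the family as a whole.

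LATS2, the kinase that inactivates YAP and is itself a target (Entrez Gene ID 26524, chromosome 13 from 20973036 to 21061586, minus strand, 8 exons), was low. It had 5.97, 5.20 and 2.32 TPM for A549-GFP replicates 1, 2 and 3, against 4.79, 4.96 and 3.59 TPM for A549-TIPARP replicates 1, 2 and 3. The A549-TIPARP values lay inside the A549-GFP range, with a log2 difference of 0.08 that became 0.34 without A549-GFP replicate 1 and -0.34 with replicate 3 left out instead. LATS1 and LATS2 summed to 5.47 to 12.6 TPM across the A549-GFP libraries against 6.90 to 9.04 TPM across the A549-TIPARP libraries.

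AJUBA, a LIM-domain scaffold that binds and restrains LATS at junctions (Entrez Gene ID 84962, chromosome 14 from 22971177 to 22982551, minus strand, 8 exons), had 22.0, 44.3 and 13.9 TPM in the A549-GFP libraries. Its A549-TIPARP libraries had 25.3, 24.8 and 20.9 TPM, all between the A549-GFP extremes. The log2 difference was -0.01, which became 0.43 with A549-GFP replicate 2 left out and -0.40 with replicate 3 left out. AMOTL2, an angiomotin that holds YAP at junctions and is also a target (Entrez Gene ID 51421, chromosome 3 from 134355347 to 134375479, minus strand, 10 exons), had 32.2, 35.4 and 17.0 TPM across the A549-GFP libraries against 31.2, 22.9 and 24.4 TPM across the A549-TIPARP libraries. Its log2 difference was -0.05, with an overlap of the lines, and it became 0.15 with A549-GFP replicate 2 left out and -0.38 with replicate 3 left out. After rescaling of the libraries the differences of AJUBA and AMOTL2 became 0.05 and 0.02, so their sign rests on the scaling.

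CTGF, a classic readout of YAP and TAZ, encodes a secreted matricellular protein that binds integrins and growth factors (Entrez Gene ID 1490, chromosome 6 from 131948176 to 131951372, minus strand, 5 exons). Its level was 11.3, 26.2 and 8.09 TPM for A549-GFP replicates 1, 2 and 3, against 29.0, 20.7 and 43.5 TPM for A549-TIPARP replicates 1, 2 and 3. A549-TIPARP replicate 2 fell below A549-GFP replicate 2, and the other libraries of the lines did not cross. The mean log2 TPM was 3.74 ± 0.87 and 4.89 ± 0.53 (SD, n = 3 each), a 2.22-fold higher level in A549-TIPARP cells. Over all analysed genes 1.53% were past 2-fold upward and 0.432% past 2-fold downward. The log2 difference of 1.15 became 1.63 without A549-GFP replicate 2, where the lines no longer overlapped. It was 1.41 without A549-TIPARP replicate 2, again with no overlap, and 0.79 without A549-GFP replicate 3. Of all analysed genes 27.7% were without overlap when A549-GFP replicate 2 was left out. The share was 16.1% without A549-TIPARP replicate 2 and 8.91% with all libraries. LINC01013, which overlaps CTGF on the other strand in GENCODE 44, was at the floor in all 6 libraries.

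CYR61, the close relative of CTGF (Entrez Gene ID 3491, chromosome 1 from 85580761 to 85584589, plus strand, 5 exons), had 13.6, 23.1 and 10.6 TPM across the A549-GFP libraries against 16.3, 22.4 and 17.0 TPM across the A549-TIPARP libraries. The highest of all 6 values was in A549-GFP replicate 2, so the lines overlapped. The mean log2 TPM was 3.90 ± 0.58 and 4.20 ± 0.25 (SD, n = 3 each), a log2 difference of 0.30. It was 0.62 without A549-GFP replicate 2, with no overlap (as for 27.7% of all analysed genes then), and 0.06 without A549-GFP replicate 3.

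The ratio of CTGF to CYR61 within a library was 0.834, 1.13 and 0.766 in A549-GFP replicates 1, 2 and 3. In A549-TIPARP it was 1.78, 0.925 and 2.55, so replicates 1 and 3 stood above all A549-GFP libraries and replicate 2 did not. The summed TPM of the pair was 18.7 to 49.3 in A549-GFP cells and 43.2 to 60.5 in A549-TIPARP cells.

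ANKRD1, a nuclear ankyrin-repeat cofactor known from cardiac muscle (Entrez Gene ID 27063, chromosome 10 from 90912096 to 90921087, minus strand, 9 exons), was the least abundant member. It had 2.29 TPM in A549-GFP replicate 1 and was at the floor of 1 TPM in replicates 2 and 3. In A549-TIPARP replicates 1, 2 and 3 it had 6.26, 3.75 and 2.83 TPM, each above every A549-GFP library. The mean log2 TPM was 0.40 ± 0.69 and 2.02 ± 0.58 (SD, n = 3 each), a log2 difference of 1.62. Because every TPM below 1 had been set to 1, the difference may be an underestimate, and on log2(TPM + 1) it was 1.11. The gap between A549-GFP replicate 1 and A549-TIPARP replicate 3 was small, and the depth behind such low values is not known.

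AXL, a receptor tyrosine kinase for GAS6 that is tied to invasion and drug resistance in lung cancer (Entrez Gene ID 558, chromosome 19 from 41219223 to 41261766, plus strand, 20 exons), was the member with the most negative difference. It had 27.4, 62.6 and 33.7 TPM across the A549-GFP libraries against 28.2, 40.1 and 29.4 TPM across the A549-TIPARP libraries, with all A549-TIPARP libraries inside the A549-GFP range. The log2 difference of -0.27 became 0.08 without A549-GFP replicate 2, so its sign rested on that library.

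**Figure D2:**
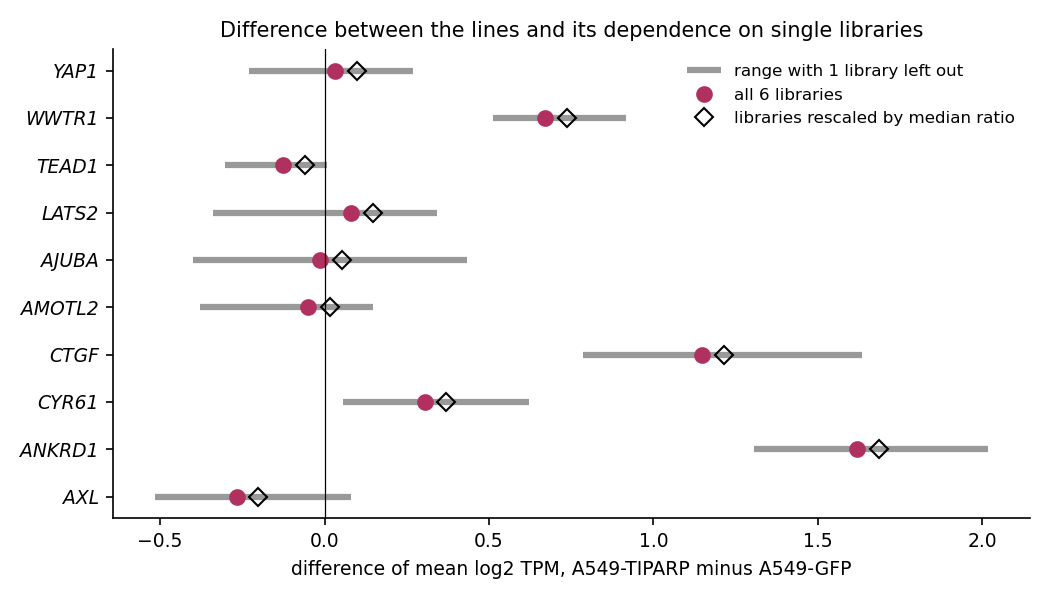
Difference of the mean log2 TPM of A549-TIPARP minus A549-GFP (x axis) for each of the 10 genes (y axis). Red circles are all 6 libraries, grey bars run over the 6 values with 1 library left out, and open diamonds are libraries rescaled by their median ratio. The bars of WWTR1 (0.51 to 0.92), CTGF (0.79 to 1.63), ANKRD1 (1.31 to 2.02) and CYR61 (0.06 to 0.62) stay above 0, and those of the other 6 genes cross it.

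TPM is per length, so the levels of the members can be put in order. In A549-GFP cells the order of the geometric means was AXL (38.7 TPM), WWTR1 (36.3 TPM), TEAD1 (29.1 TPM), AMOTL2 (26.9 TPM), YAP1 (26.0 TPM), AJUBA (23.8 TPM), CYR61 (14.9 TPM), CTGF (13.4 TPM), LATS2 (4.16 TPM) and ANKRD1 (1.32 TPM). Neighbours overlapped down to CTGF, and only the steps from CTGF to LATS2 and from LATS2 to ANKRD1 were without overlap. In A549-TIPARP cells WWTR1 came first with 57.8 TPM, and its lowest library (56.8 TPM) lay above the highest library of any other member (CTGF, 43.5 TPM). CTGF moved from rank 8 to rank 3 with 29.7 TPM. From AXL at rank 2 to CYR61 at rank 8 all neighbours overlapped, as did LATS2 and ANKRD1 at ranks 9 and 10.

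The other genes of the pathway were read from 7 lists of 65 genes, put together by known role when earlier results of these data were known, so the counts and p-values below are not independent of those results. Of these 54 were analysed, and 11 were at the floor in all 6 libraries, among them AMOT, FAT4, DCHS1 and VGLL1. By limma on log2(TPM + 1) none of the 54 had an adjusted p-value under 0.05 over all 13181 genes, where 0.0152% of genes did (TIPARP and RBM14-RBM4). The adjusted p-value of TIPARP by limma, 0.0125, was above 0.05 in 5 of the 6 fits with 1 library left out (0.0526 to 0.192). It was 0.0331 without A549-GFP replicate 2 and 0.513 with the experiment number as a block. In a fit without a filter and without a variance trend, chosen after seeing the data, it was 0.445. Without adjustment 3 of 54 (5.56%) were under 0.05, against 3.85% of all analysed genes. WTIP and CCDC80 were higher (2.97% of all genes) and IGFBP3 was lower (0.88%). With single libraries left out the count of 3 ran from 2 to 8. It was 8 without A549-GFP replicate 2 and 6 with replicate 3 left out instead. Of all analysed genes 508 were under 0.05 with all libraries, and 1379 and 1085 were in those fits. The libraries of the lines did not overlap for 4 of 54 (7.41%), 3 higher and 1 lower, against 8.91% of all genes in either direction. The median log2 difference was -0.05, and its sign rested on single libraries and on the scaling. It was 0.10 without A549-GFP replicate 2, -0.16 with replicate 3 left out instead, 0.01 without A549-GFP replicate 1 or A549-TIPARP replicate 3, and 0.02 after rescaling. The medians of the single lists were not recomputed in this way. For these lists and for TIPARP, limma p-values measure the spread between 3 libraries of each line.

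Of 16 further target genes 15 were analysed, with 7 higher and 8 lower means and a median log2 difference of -0.04. CCDC80, a secreted matrix-binding protein, had 4.36, 3.97 and 1.80 TPM across the A549-GFP libraries against 11.9, 8.80 and 8.83 TPM across the A549-TIPARP libraries. The lines did not overlap, and the level was 3.09-fold higher (log2 difference on log2(TPM + 1) 1.35, standard error 0.30, limma adjusted p = 0.477). IGFBP3, which binds insulin-like growth factors, had 694, 1795 and 773 TPM across the A549-GFP libraries against 503, 514 and 703 TPM across the A549-TIPARP libraries. Its log2 difference of -0.80 (limma adjusted p = 0.994) became -0.37 without A549-GFP replicate 2, and A549-TIPARP replicate 3 overlapped with A549-GFP replicate 1. TGFB2, a TGF-beta ligand, and ARHGEF17 had overlapping libraries and log2 differences of 0.61 and 0.59. The value of TGFB2 became 1.16 without A549-GFP replicate 2 and 0.14 with replicate 3 left out instead, and that of ARHGEF17 became 0.37 without replicate 3. MYOF, a membrane repair protein and after IGFBP3 the most abundant of the list, had between 59.0 and 99.6 TPM in the 6 libraries and a log2 difference of -0.13, which lay between -0.30 (A549-GFP replicate 3 left out) and 0.04 (A549-TIPARP replicate 3 left out).

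In the kinase cascade above YAP and TAZ all 15 genes were analysed, none was past 1.5-fold or without overlap, and the log2 differences ran from -0.46 to 0.20 with a median of -0.09. MOB1A, the LATS coactivator, had 49.0 to 81.3 TPM across the A549-GFP libraries against 59.0 to 59.4 TPM across the A549-TIPARP libraries. WWC1, the scaffold KIBRA, had 30.4 to 38.0 TPM and 30.9 to 34.4 TPM. Among TEAD factors and VGLL cofactors 5 of 7 were analysed, none without overlap, and the differences ran from -0.50 to 0.14. TEAD2 and TEAD4, the most abundant of these, had log2 differences of 0.02 and -0.09, whose signs turned with single libraries. TEAD2 ran from -0.15 without A549-GFP replicate 1 to 0.26 with replicate 2 left out instead. TEAD4 ran from -0.31 without A549-GFP replicate 2 to 0.07 without A549-TIPARP replicate 3.

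Among junction and polarity partners 8 of 11 were analysed. WTIP, a LIM protein of the AJUBA family (chromosome 19 from 34481758 to 34512304, plus strand, 8 exons), had 3.57, 1.18 and 2.51 TPM across the A549-GFP libraries against 8.61, 7.02 and 7.96 TPM across the A549-TIPARP libraries. The lines did not overlap, and the level was 3.57-fold higher (log2 difference on log2(TPM + 1) 1.43, standard error 0.29, limma adjusted p = 0.424). Over the alternatives its adjusted p-value ran from 0.225 to 1. WTIP took 1.40% to 6.33% of the summed TPM of AJUBA, LIMD1 and WTIP in A549-GFP cells and 11.3% to 14.6% in A549-TIPARP cells. The sum itself overlapped between the lines, with 45.0 to 84.1 TPM and 58.7 to 62.0 TPM. AMOTL1, the relative of AMOTL2, was lower without overlap, with 13.2 to 15.9 TPM across the A549-GFP libraries against 9.99 to 13.0 TPM across the A549-TIPARP libraries and a log2 difference of -0.35 (limma adjusted p = 0.994). CTNNA1 and SCRIB, the most abundant of this list, had log2 differences of 0.01 and -0.16, and with single libraries left out these ran from -0.08 (A549-GFP replicate 3) to 0.08 (A549-GFP replicate 2) and from -0.22 (A549-TIPARP replicate 2) to -0.05 (A549-TIPARP replicate 3).

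**Figure D3:**
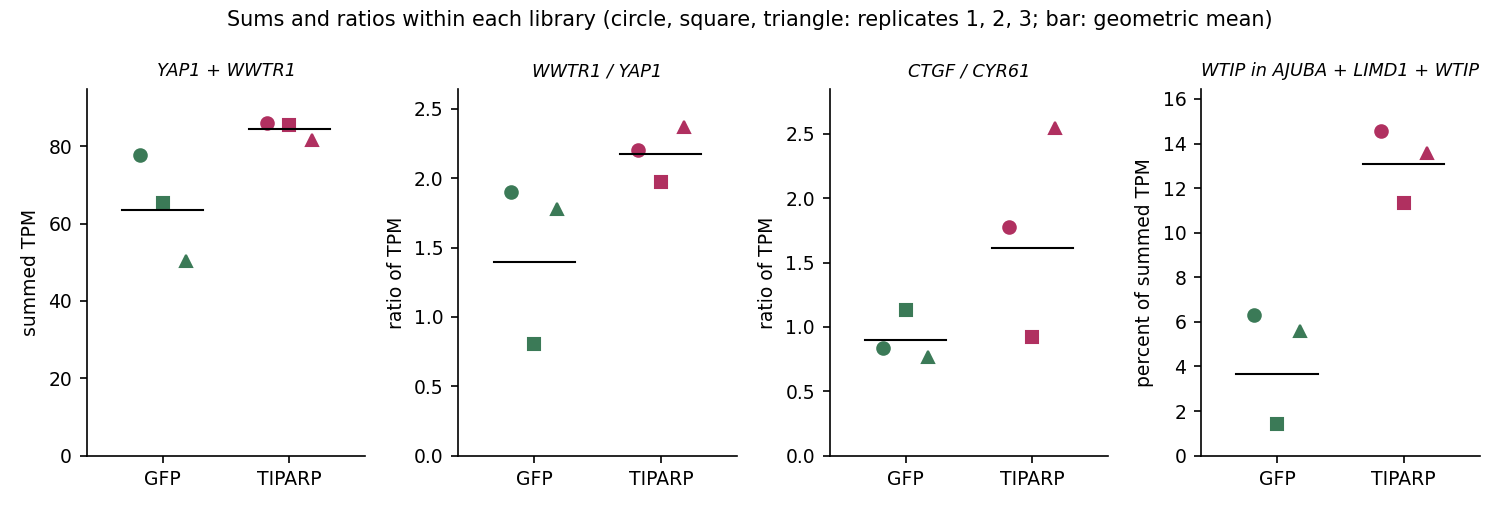
Sums, ratios and shares of TPM within each library (y axes from 0, in the unit given on each axis) for A549-GFP (green) and A549-TIPARP (red), with circles, squares and triangles for replicates 1, 2 and 3 and bars for geometric means. WWTR1 over YAP1, the sum of both and the WTIP share are higher in every A549-TIPARP library, and CTGF over CYR61 overlaps through replicate 2 of A549-TIPARP (0.925).

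Of the 4 relatives of CTGF and CYR61 only WISP2 was above the floor. It had 2.29 to 5.42 TPM across the A549-GFP libraries against 4.72 to 5.85 TPM across the A549-TIPARP libraries, with an overlap and a log2 difference of 0.52, which was 0.20 without A549-GFP replicate 1 and 0.82 without replicate 2. Of the AXL relatives and ligands all 4 were analysed and none was past 1.5-fold or without overlap. GAS6, the AXL ligand, had 3.41, 12.4 and 4.25 TPM across the A549-GFP libraries against 5.81, 4.63 and 10.3 TPM across the A549-TIPARP libraries. Its log2 difference of 0.21 became 0.78 without A549-GFP replicate 2 and -0.16 with replicate 1 left out instead. PROS1, which activates the related receptors TYRO3 and MERTK, had a log2 difference of 0.03, which lay between -0.23 (A549-TIPARP replicate 3 left out) and 0.18 (A549-GFP replicate 2 left out). Of 8 target genes of SRF and MRTF, another route from the actin cytoskeleton to CTGF and CYR61, 6 were analysed with a median log2 difference of 0.31. TPM1, a tropomyosin, had 67.8 to 118 TPM across the A549-GFP libraries against 119.8 to 133 TPM across the A549-TIPARP libraries, a 1.40-fold higher level without overlap (limma adjusted p = 0.994). CNN2, a calponin, had a log2 difference of 0.20 with an overlap.

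**Figure D4:**
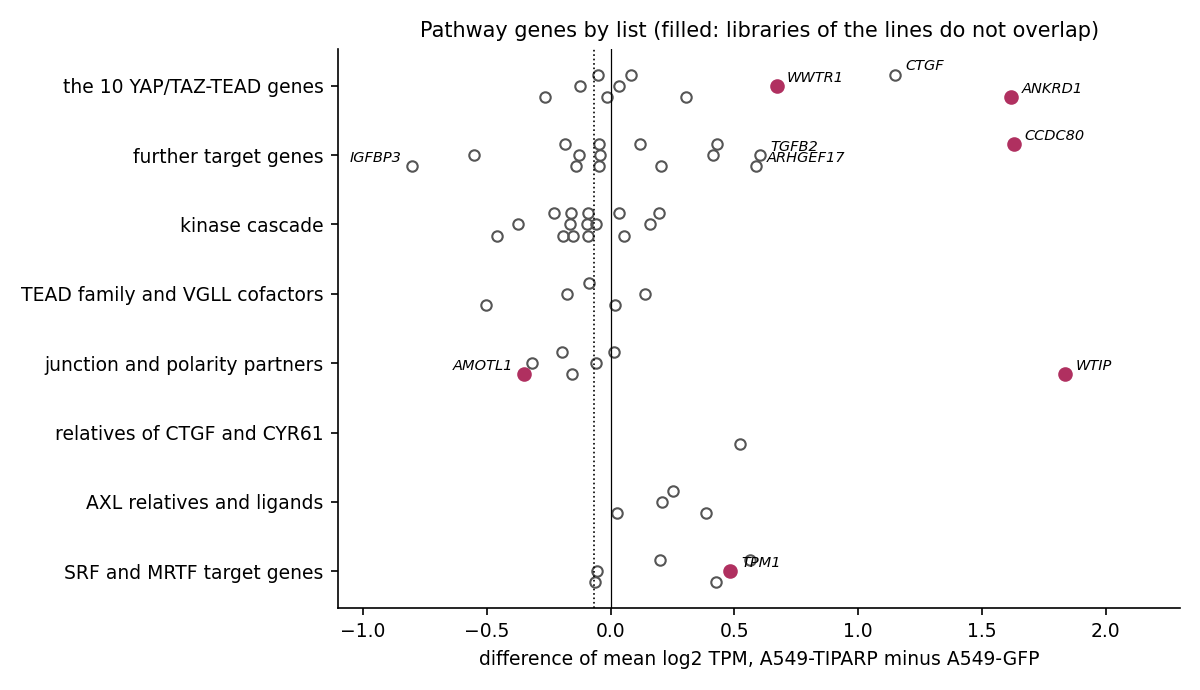
Difference of mean log2 TPM of A549-TIPARP minus A549-GFP (x axis) for the 10 YAP/TAZ-TEAD genes and the analysed genes of 7 lists (rows), less 1 gene that is not reported here. Filled points have libraries that do not overlap between the lines, named points are these and those past 1.5-fold, the solid line is 0 and the dotted line the median of all analysed genes (-0.07). Most points lie near 0, with WTIP, CCDC80, ANKRD1 and CTGF at the right.

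The genes whose levels followed CTGF and YAP1 most closely over the 6 libraries were sought by Pearson's r on log2(TPM + 1). For CTGF these were AMIGO2 (r = 0.998), NPTXR (r = 0.996) and FAM201A (r = 0.996). AMIGO2 had 86.6, 149.9 and 67.7 TPM across the A549-GFP libraries against 149.6, 127 and 201 TPM across the A549-TIPARP libraries, and so shared with CTGF the high values of A549-GFP replicate 2 and A549-TIPARP replicate 3. Next to YAP1 stood SH3RF1 (r = 0.996), ZBTB8A (r = 0.996) and PIGM (r = 0.995). With only 6 libraries and 13180 genes compared, r above 0.9 was common, reached by 388 genes with CTGF and 737 with YAP1. All points share their libraries and the scaling of those libraries.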

How the data were processed

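RNA-seq of 3 A549-GFP and 3 A549-TIPARP libraries was analysed. Stranded mRNA libraries were made and sequenced by a company. The authors used Strand NGS to align the read pairs to transcripts of hg38 and deposited log2 TPM per gene, with TPM below 1 set to 1 and no counts. The version and the annotation release are not given in the sources used here. TPM keeps no depth, so no counting error could be computed.

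Samples were grouped and numbered by their titles. Differences are those of mean log2 TPM. Values were turned back to TPM, and limma 3.58.1 (R 4.3.3) was run on log2(TPM + 1) of the 13181 genes above 2 TPM in at least 1 library, with a trend in the variances and p-values adjusted by Benjamini-Hochberg. The script was tested on simulated data. Coordinates are from GENCODE 44 and promoters from RefSeq (GRCh38.p14). The members and lists were chosen with earlier results of these data known. Named genes were the members, TIPARP, further genes past 1.5-fold or without overlap, the 2 most abundant of each list, and the 3 most like CTGF or YAP1, and 1 gene that met this rule is not reported here. Pseudocounts, filters, rescaling, single libraries left out and a replicate block were tried as alternatives.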

Additional observations from a re-analysis of the deposited data

How the results depend on the processing

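The median log2 difference of the 10 genes (0.06) kept its sign in all alternatives but 1. It was -0.27 without A549-GFP replicate 3 and 0.35 with replicate 2 left out instead, and lay between 0.02 and 0.16 in the others. ANKRD1 and WWTR1 were without overlap in each of them. Of these only the rescaling could have made them overlap, since the others keep the order of the libraries or take a library away. Leaving a library out can only keep or raise a count of genes without overlap. Over all genes the share was 8.91% with all libraries and 11.7% to 30.7% with single libraries left out. The number of members without overlap, 2 with all libraries, ran from 2 to 5 with single libraries left out. It was 4 without A549-GFP replicate 2 (27.7% of all genes then) and 5 without A549-GFP replicate 3 (30.7%), where AMOTL2, LATS2 and TEAD1 were lower. For the 54 further genes the number was 4, between 4 and 21 with single libraries left out (21 without A549-GFP replicate 3, 38.9% of them) and 11 after rescaling (20.4%, against 12.0% of all genes). By limma no further gene passed an adjusted p-value of 0.05 in any fit. Over all genes 2 passed, 1 to 3 with single libraries left out, and 1 without a filter, which was run without a trend, since a trend could not be fitted to all entries, and was chosen after seeing the data. For TIPARP the adjusted p-value, 0.0125 with all libraries, was between 0.0331 (without A549-GFP replicate 2) and 0.192 with single libraries left out, 0.445 without a filter and 0.513 with the replicate block. The experiment numbers were not taken as pairs, since not every same-numbered pair of deviations had r over 0.1 (0.45, -0.52 and -0.38). Deviations within 3 libraries sum to 0, so these r do not show that the numbers carry no pairing. With the number as a replicate block 1 gene passed, 414 in place of 508 had an unadjusted p-value under 0.05, and the median of the 10 genes was 0.06 as before. TPM keeps no depth, which limits values near the floor such as ANKRD1.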
